A study of Mus musculus with 14 samples.

Results

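The brown fat thermogenic genes were examined here as 10 genes, *Ucp1*, *Cidea*, *Cox7a1*, *Cox8b*, *Elovl3*, *Ppargc1a*, *Dio2*, *Prdm16*, *Ppara*, and *Otop1*, taken by symbol from the 24062 genes of the count table. All 10 were found. They were selected on classical brown adipocyte function and on measured values of the contrast between plexiform neurofibromas (PNs) and controls, after *Cidea*, *Cox7a1*, and *Cox8b* had been seen among the genes that differed most in that contrast in these libraries. Their levels against controls are therefore given as a description, and the comparison of fast-growing with slow-growing PNs, which uses no control library, is the tested one.

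Bulk RNA-seq was made from 14 libraries of *Nf1*fl/fl mice on a mixed C57BL/6, I-129, and FVBN background. The 3 controls were dorsal root ganglia (DRGs) with nerve roots and proximal nerve from littermates that carried the floxed alleles but no Cre. The 11 PNs came from DhhCre;*Nf1*fl/fl mice, in which the *Dhh* promoter drives Cre in the Schwann cell lineage, so *Nf1* is lost in those cells and remains in the rest of the tumor. All mice were 9 months old and untreated. By MRI, 5 PNs were slow-growing (volume change under 5 mm3 over 2 months; mice 1079, 1198A, 1202, 1203, and 1206) and 6 were fast-growing (over 35 mm3 over 2 months; mice 1053, 1071, 1179, 1191, 1214, and 1216). RNA came from whole frozen tissue, so each value averages all cells of the piece. In such bulk tissue, fewer cells of a type and less RNA per cell cannot be told apart.

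Brown adipocytes burn fatty acids to make heat. Cold activates sympathetic nerves, noradrenaline acts on beta-adrenergic receptors of the adipocyte, cAMP rises, and transcription of a thermogenic program follows; UCP1 in the inner mitochondrial membrane then lets protons return without making ATP. Brown fat shares much of its oxidative machinery with striated muscle, with which it shares precursors: *Cox7a1*, *Cox8b*, *Ppargc1a*, and *Ppara* are all expressed in muscle too. In the mouse, brown and white fat depots lie close to the spine and its nerve roots.

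Total counts were between 9596773 and 17594164 per library, which puts the level equal to 3 counts between 0.166 and 0.317 CPM, the library-size-normalized unit used here (counts as a share of the library's total, scaled by edgeR's TMM factors). All 10 sensory neuron genes and all 8 Schwann cell genes listed as tissue markers had at least 1 read in every library. The summed CPM of the neuron genes was 22.0 in fast-growing PN 1191 and between 981 and 9176 in the other 13 libraries, so this PN stood apart as nearly free of neuronal RNA. Mean *Nf1* levels (± SD) were 171 ± 51.5 CPM over the 3 controls, 256 ± 24.6 over the 5 slow-growing PNs, and 242 ± 21.5 over the 6 fast-growing PNs; gene counts do not separate the floxed exons, and the gene is intact in the other cells of the tumor.

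Start-site sequences are shown for the 3 thermogenic genes that were lowest together in PNs and had an entry, *Ucp1*, *Cox7a1*, and *Cox8b*, and for *Dio2*, whose order among PNs was different. They are RefSeq windows of the GRCm38.p6 (mm10) assembly, each from 250 bases before to 50 after the RefSeq start of the gene, written 5′ to 3′ along the gene's strand; 8 of the 10 genes had one. The *Ucp1* window is chr8:83290098-83290397 (plus strand), that of *Cox7a1* chr7:30183921-30184220 (plus), that of *Cox8b* chr7:140900397-140900696 (minus), and that of *Dio2* chr12:90738989-90739288 (minus). Capitals mark the nuclear receptor half-site AGGTCA, the cAMP response element half-site TGACG or its full palindrome TGACGTCA, which holds 2 half-sites, and the TATA box letters TATAAA, each searched on both strands.

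Ucp1: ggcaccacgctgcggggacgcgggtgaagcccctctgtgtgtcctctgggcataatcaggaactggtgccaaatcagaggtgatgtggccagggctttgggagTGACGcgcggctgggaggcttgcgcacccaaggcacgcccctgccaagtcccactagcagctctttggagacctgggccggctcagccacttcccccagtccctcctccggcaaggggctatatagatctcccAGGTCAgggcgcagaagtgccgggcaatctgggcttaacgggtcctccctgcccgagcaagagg
Cox7a1: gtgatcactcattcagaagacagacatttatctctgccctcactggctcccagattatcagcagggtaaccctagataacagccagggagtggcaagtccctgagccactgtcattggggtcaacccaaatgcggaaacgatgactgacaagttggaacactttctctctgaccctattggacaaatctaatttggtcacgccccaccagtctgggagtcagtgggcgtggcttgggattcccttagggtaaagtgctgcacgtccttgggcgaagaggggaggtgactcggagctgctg
Cox8b: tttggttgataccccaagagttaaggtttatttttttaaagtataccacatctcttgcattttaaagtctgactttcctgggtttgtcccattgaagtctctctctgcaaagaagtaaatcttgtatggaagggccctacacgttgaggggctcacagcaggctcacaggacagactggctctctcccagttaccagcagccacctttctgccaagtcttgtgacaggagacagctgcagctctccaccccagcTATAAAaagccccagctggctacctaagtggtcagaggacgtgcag
Dio2: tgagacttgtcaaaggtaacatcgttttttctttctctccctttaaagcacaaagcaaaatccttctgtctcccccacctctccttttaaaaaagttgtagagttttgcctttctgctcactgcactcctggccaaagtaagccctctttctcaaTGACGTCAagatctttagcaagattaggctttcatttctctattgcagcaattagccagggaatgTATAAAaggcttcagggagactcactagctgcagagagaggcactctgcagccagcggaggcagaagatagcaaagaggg

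The letters TGACG stood in 4 of the 8 windows, those of *Ucp1*, *Dio2*, *Ppargc1a*, and *Ppara*, and in 20.8% of 32851 RefSeq windows of the same length. The full palindrome was found only for *Dio2* among the 8, against 1.79% of all windows. TATAAA stood in the windows of *Cox8b* and *Dio2* (13.6% of all windows), and AGGTCA in that of *Ucp1* alone (16.3%). The TATAAA of *Cox8b* began at offset 4, after the RefSeq start, and that of *Dio2* at offset -30, before it. The *Dio2* window lies wholly outside the GENCODE span of the gene given below, since the 2 annotations place its start differently. The GC box GGGCGG, left in lower case, was in those of *Prdm16*, *Otop1*, and *Ppara* (35.7%). The element TCAAGGTCA, which holds AGGTCA, was in none of the 8 and in 0.423% of all windows, and a DR1 element in none of the 8 and in 0.0396%. *Cox7a1* had none of these letters in its window. The enhancers through which thermogenic genes are known to be controlled can lie outside such windows.

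*Ucp1* (chr8:83290352-83298452) encodes the uncoupling protein that defines thermogenic adipocytes. It was at 835 CPM in control DRG3, 816 in DRG4, and 1291 in DRG5. The slow-growing PNs held 1.75 (1079), 284 (1198A), 161 (1202), 1.73 (1203), and 58.9 CPM (1206), and the fast-growing PNs 0.0553 (1053), 18.6 (1071), 0.293 (1179), 5.14 (1191), 78.5 (1214), and 0.403 CPM (1216). The groups did not overlap: the highest PN was at 34.8% of the lowest control, and the single *Ucp1* read of PN 1053 lay under the level of 3 counts. Per kilobase of transcript, *Ucp1* was the most abundant of the 10 genes in controls (599 CPM per kb), followed by *Cox8b* (540). The fitted fold was 17.7-fold lower in PNs than in controls.

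*Cidea* encodes a lipid droplet protein that is abundant in brown adipocytes. Controls held 182, 283, and 245 CPM (DRG3, DRG4, and DRG5). In slow-growing PNs it was at 1.60, 31.3, 25.5, 0.274, and 14.6 CPM, in the order 1079, 1198A, 1202, 1203, and 1206, which is kept below. Fast-growing PNs held 0.387, 1.29, 0.293, 0.227, 5.10, and 0 CPM, in the order 1053, 1071, 1179, 1191, 1214, and 1216, also kept below. Slow-growing PN 1203 and fast-growing PNs 1191 and 1216 had 3 reads or fewer. The highest PN reached 17.2% of the lowest control, and the fitted fold was 32.6-fold lower in PNs, the largest of the 10 genes.

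*Cox7a1* (chr7:30184144-30186078) and *Cox8b* (chr7:140898945-140900446) encode the heart and muscle forms of 2 small subunits of cytochrome c oxidase, which brown adipocytes also use. *Cox7a1* was at 97.9, 117, and 171 CPM in controls, at 3.57, 15.6, 15.5, 1.19, and 5.69 CPM in slow-growing PNs, and at 1.77, 3.27, 1.39, 1.51, 3.11, and 1.48 CPM in fast-growing PNs. *Cox8b* was at 154, 170, and 259 CPM in controls, at 3.50, 26.7, 26.8, 2.10, and 16.8 CPM in slow-growing PNs, and at 1.33, 4.97, 0.0732, 0.454, 3.33, and 0.604 CPM in fast-growing PNs. For both genes every control lay far above every PN, and slow-growing PNs 1198A and 1202 were the highest PNs. The fitted folds were 26.3-fold (*Cox7a1*) and 24.9-fold (*Cox8b*) lower in PNs.

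*Elovl3* (chr19:46131897-46135694) encodes an elongase of very long-chain fatty acids that rises in cold-exposed brown fat. Controls held 16.5, 17.6, and 15.5 CPM. Slow-growing PNs held 0, 7.21, 2.95, 0.183, and 0.964 CPM and fast-growing PNs 0, 0.612, 0, 0.681, 2.89, and 0 CPM. In 5 of 11 PNs it was at or under 3 counts. *Ppara* (chr15:85734983-85802819), the nuclear receptor of fatty acid oxidation genes, was far less extreme: 66.5, 50.8, and 129 CPM in controls, 13.6, 35.2, 30.8, 7.48, and 36.4 CPM in slow-growing PNs, and a narrow 13.2 to 17.8 CPM in fast-growing PNs (median 14.6). The highest PN was at 71.6% of the lowest control, and the fitted fold was 4.20-fold lower in PNs, against 11.8-fold for *Elovl3*.

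The transcriptional regulators among the 10 genes differed far less between groups than *Ucp1*. *Ppargc1a* (chr5:51454250-51567726), the coactivator of mitochondrial biogenesis, was at 135, 66.9, and 115 CPM in controls, 77.7, 95.1, 77.9, 62.1, and 51.9 CPM in slow-growing PNs, and 61.9, 49.3, 47.9, 49.9, 64.1, and 41.3 CPM in fast-growing PNs. Control DRG4 lay among the slow-growing PNs, and every fast-growing PN was below every control; the fitted fold was 1.71-fold lower in PNs. *Prdm16* (chr4:154316125-154636873), a transcriptional regulator that sets brown fat against muscle fate, was at 38.2, 24.2, and 24.6 CPM in controls. It was at 33.2, 41.5, 21.8, 18.6, and 58.8 CPM in slow-growing PNs and at 38.7, 45.5, 57.4, 49.6, 37.2, and 39.3 CPM in fast-growing PNs. It was the 1 gene of the 10 that was not lower in PNs (log2 fold change 0.47, SE 0.30), with all groups overlapping, and this sign turned to -0.22 with a skeletal muscle score as a covariate.

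*Dio2* (chr12:90724552-90738438) encodes the deiodinase that makes active thyroid hormone inside the brown adipocyte and is induced by cAMP. Controls held 79.7, 69.0, and 151 CPM. Slow-growing PNs held 4.10, 40.9, 26, 3.10, and 15.9 CPM, and fast-growing PNs 23.9, 11.3, 25.4, 61.0, 21.0, and 20.4 CPM. Its highest PN was fast-growing PN 1191, where *Ucp1* was at 5.14 CPM and *Cidea* had 3 reads. *Otop1* (chr5:38275972-38304217), a proton channel found in brown fat and in taste and vestibular cells, was at 40.5, 32.4, and 34.9 CPM in controls, 6.23, 27.1, 17.5, 6.66, and 13 CPM in slow-growing PNs, and 15.7, 16.4, 17.3, 4.01, 16.8, and 9.13 CPM in fast-growing PNs. Both were lower in every PN than in any control, by a fitted 4.34-fold (*Dio2*) and 2.64-fold (*Otop1*).

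**Figure D1:**
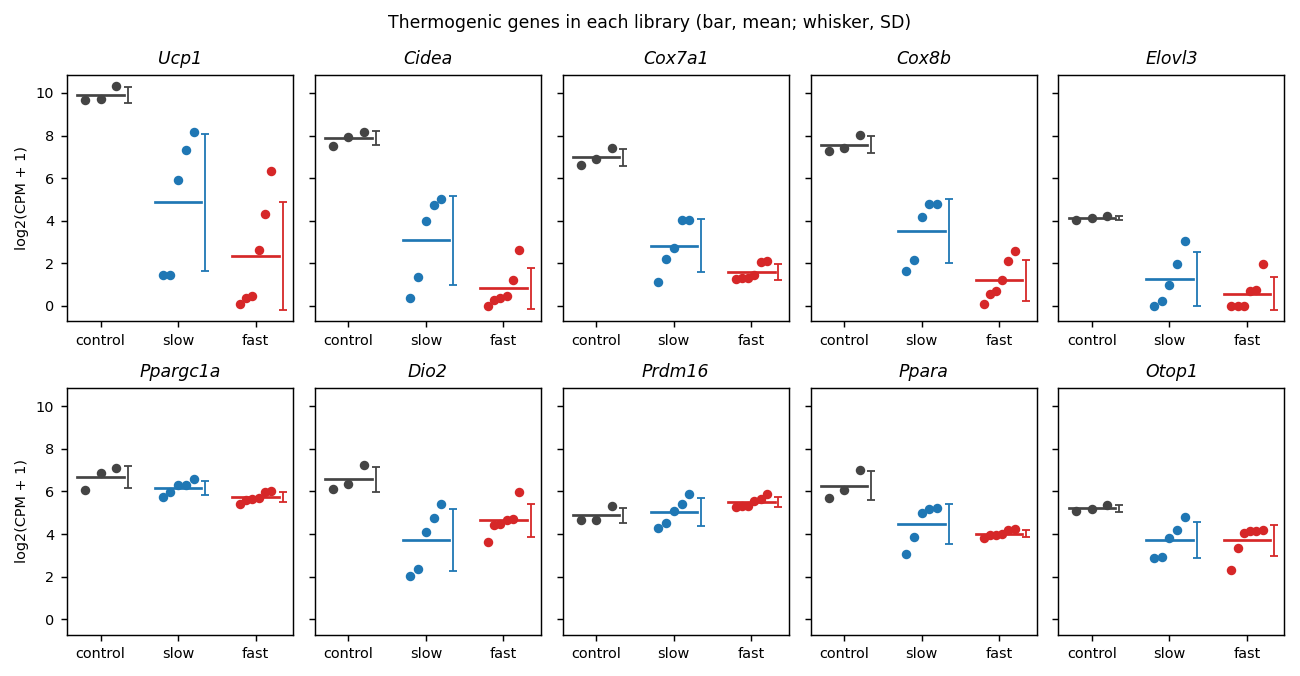
Level of each thermogenic gene in each library as log2(CPM + 1), by group (3 control DRGs, 5 slow-growing PNs, 6 fast-growing PNs); points are libraries, horizontal bars group means, and whiskers SDs. *Ucp1*, *Cidea*, *Cox7a1*, *Cox8b*, and *Elovl3* lie low and spread out in PNs, while *Ppargc1a* and *Prdm16* overlap or nearly overlap between groups.

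All 10 genes passed edgeR's filter on low counts against controls. At a Benjamini-Hochberg adjusted p under 0.05 (edgeR's quasi-likelihood test), 9 of the 10 were called lower in PNs than in controls, where 13.4% of 16283 genes were called lower, and 8 of the 10 were lower in every PN than in every control, where 9.48% of genes were. Since this contrast chose the genes, nothing is read from these counts. With a skeletal muscle score of each library as a covariate, 2 of the 10 were called (*Cox7a1* and *Ppara*), while the log2 fold changes stayed about as large or grew: -4.94 for *Ucp1*, -5.53 for *Cidea*, -4.62 for *Cox7a1*, -4.70 for *Cox8b*, and -4.97 for *Elovl3*. With a general adipocyte score the same 2 were called and the log2 fold changes were smaller: -1.33 for *Ucp1*, -2.41 for *Cidea*, -3.03 for *Cox7a1*, -2.55 for *Cox8b*, and -1.33 for *Elovl3*. Neither score overlapped between controls and PNs. The adipocyte score was 7.53 to 7.82 in controls and at most 7.30 in PNs (1.69 to 4.28 in fast-growing PNs). The muscle score was 7.51 or above in controls and 7.04 or below in PNs. These fits cannot separate a score from the group, so nothing is read from them. The call of *Ucp1* was the nearest to the threshold (log2 fold change -4.14, SE 1.44) and was lost on leaving out any 1 of 11 libraries, that is, each control, slow-growing PNs 1079, 1203, and 1206, and fast-growing PNs 1071, 1179, 1191, 1214, and 1216. The calls of *Elovl3* and *Otop1* were lost without any 1 control, that of *Ppargc1a* without DRG3 or DRG5, and that of *Dio2* without DRG5. The log2 fold changes stayed negative with any 1 library left out. They ranged from -4.91 to -3.90 for *Ucp1*, from -4.34 to -3.42 for *Elovl3*, and from -1.55 to -1.30 for *Otop1*. For *Ppargc1a* the range was -1.02 to -0.56, and for *Dio2* -2.40 to -1.69. The count was 5 without DRG3 and 4 without DRG5. The size of the fitted change also depended on the tool for the genes that were lowest in PNs: with limma voom the log2 fold change was -7.51 for *Ucp1*, -7.54 for *Cidea*, -6.23 for *Cox8b*, and -5.73 for *Elovl3*, against -4.14, -5.03, -4.64, and -3.56 with edgeR.

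Against the same 3 controls, slow-growing PNs had 3 of the 10 genes called lower (*Cidea*, *Cox7a1*, and *Cox8b*), where 7.13% of 15714 genes were called lower, and fast-growing PNs had 9 of 10, where 16.7% of 16037 genes were called lower and 14.8% higher. For slow-growing PNs the count was 6 with DESeq2 (12.2% of all genes lower), 6 with limma voom (7.5%), and 5 with all 14 libraries in 1 fit (10.4%). Both comparisons are parts of the contrast that chose the genes, so nothing is read from these counts either. Without DRG4 or without DRG5 the slow-growing count was 1, and without slow-growing PN 1198A it was 6. With the muscle score as a covariate the slow-growing count was 0 and the fast-growing count 1, and with the adipocyte score they were 3 and 0. The adipocyte score also turned the log2 fold change of fast-growing PNs against controls to 5.62 for *Ucp1*, 4.23 for *Elovl3*, and 0.44 for *Dio2*. That score did not overlap between these groups, so nothing is read from the turned signs. The fitted folds of the most extreme genes stood side by side at 16.6-fold lower in slow-growing and 207-fold lower in fast-growing PNs for *Cidea*, 13.1-fold and 114-fold for *Cox8b*, 15.9-fold and 64.4-fold for *Cox7a1*, and 9.92-fold and 60.7-fold for *Ucp1*. For *Dio2* they were 5.69-fold and 3.82-fold, and for *Otop1* 2.62-fold and 2.83-fold. The largest folds depended on single libraries. With 1 library left out, the log2 fold change in fast-growing PNs ranged from -9.10 to -7.35 for *Cidea* and from -7.73 to -5.58 for *Ucp1*. In slow-growing PNs it ranged from -4.54 to -3.72 for *Cidea* and from -4.17 to -2.97 for *Ucp1*. These 2 comparisons share their controls, so the direct comparison below is the one that bears on growth rate.

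Fast-growing PNs were tested directly against slow-growing PNs to ask whether the thermogenic genes varied with tumor growth. *Elovl3* did not pass the filter on low counts, so 9 genes were tested among 15465. None of the 9 was called by edgeR in either direction; over all genes 0.466% were called lower and 0.802% higher in fast-growing PNs. Unadjusted p was under 0.05 for 4 of the 9, *Cidea*, *Cox7a1*, *Cox8b*, and *Ppargc1a*. The share of all genes under that p is not given, so nothing is read from such counts here or below. With limma voom, 0 were called as well. DESeq2 called 3, all lower: *Cidea*, *Cox7a1*, and *Cox8b*; it called 4.69% of all genes lower. The median log2 fold change of the 9 was -0.69, beside -0.03 for all genes. Without fast-growing PN 1191, the library nearly free of neuronal RNA, edgeR again called 0.

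Mean *Cidea* levels (± SD) were 14.7 ± 13.9 CPM over the 5 slow-growing PNs and 1.22 ± 1.96 over the 6 fast-growing ones, with a fitted log2 ratio of -3.60 (SE 1.20; edgeR adjusted p = 0.121, DESeq2 adjusted p = 0.0190). For *Cox8b* the levels were 15.2 ± 12.0 and 1.79 ± 1.94 CPM, a log2 fold change of -3.08 (SE 0.90; edgeR adjusted p = 0.0860, DESeq2 adjusted p = 0.00590). For *Cox7a1* they were 8.32 ± 6.82 and 2.09 ± 0.862 CPM, a log2 fold change of -1.99 (SE 0.57; edgeR adjusted p = 0.0833, DESeq2 adjusted p = 0.00856). In all 3 genes the group ranges overlapped: slow-growing PN 1203 lay within or below the range of the fast-growing PNs, and for *Cidea* and *Cox8b* PN 1079 lay within it. Leaving out PN 1203 brought *Cox7a1* past the threshold (edgeR adjusted p = 0.0273), which made 1 call; the adjusted p of *Cox7a1* ranged up to 0.219 over the other omissions of 1 library.

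*Ucp1* averaged 101 ± 121 CPM among slow-growing tumors against 17.2 ± 30.9 among fast-growing ones, and its log2 fold change of -2.57 had a 95% interval from -6.04 to 0.90 (edgeR adjusted p = 0.393). The spread among slow-growing PNs exceeded the difference. With 1 library left out, the log2 fold change of *Ucp1* ranged from -4.37 to -1.71, and that of *Cidea* from -5.01 to -3.11. *Ppargc1a* was at 72.9 ± 16.6 and 52.4 ± 8.80 CPM (log2 fold change -0.48, SE 0.17; edgeR adjusted p = 0.142). *Ppara* was at 24.7 ± 13.2 and 15.3 ± 1.79 CPM (log2 fold change -0.69, SE 0.35; edgeR adjusted p = 0.286). The remaining 3 genes leaned less, or the other way: *Dio2* by 0.59 (0.16 without fast-growing PN 1191; interval -0.80 to 1.98; 18 ± 15.9 and 27.2 ± 17.3 CPM), *Prdm16* by 0.36 (interval -0.24 to 0.96), and *Otop1* by -0.09 (interval -1.07 to 0.88), each on the log2 scale. With the general adipocyte score as a covariate, the log2 fold change turned positive for *Ucp1* (2.39), *Cidea* (0.79), *Ppara* (0.53), and *Otop1* (0.67), none of them called, and that of *Otop1* also changed sign when single libraries were left out.

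**Figure D2:**
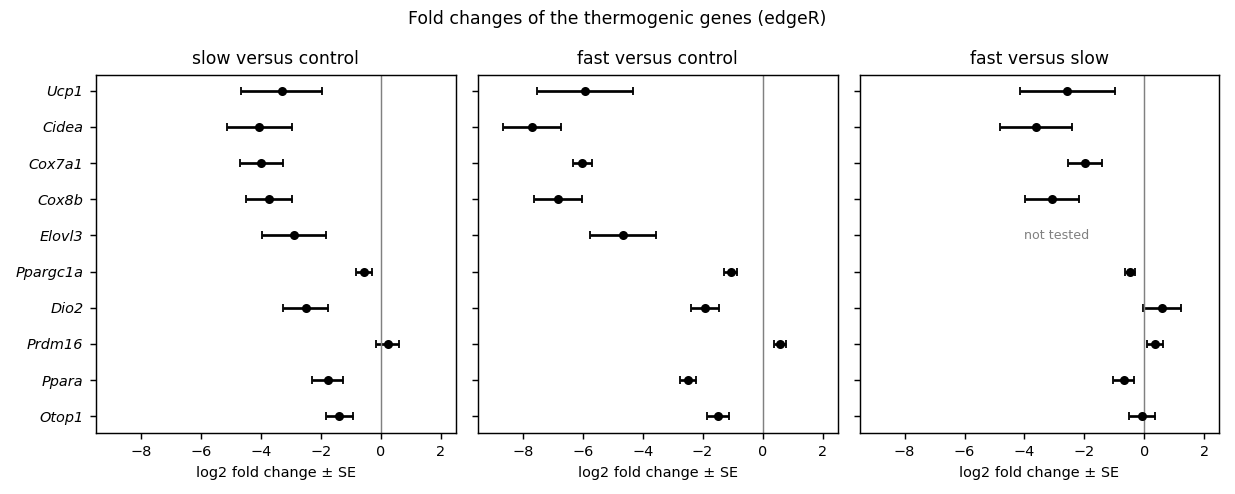
Log2 fold change of each thermogenic gene with its standard error in 3 edgeR comparisons (slow-growing PNs against controls, fast-growing PNs against controls, and fast-growing against slow-growing PNs); the vertical line marks no change. *Cidea* and *Cox8b* lie near -3.60 and -3.08 in fast-growing against slow-growing PNs, while *Dio2*, *Prdm16*, and *Otop1* lie at 0.59, 0.36, and -0.09.

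Among the 11 PNs, the genes differed in how far they spread. The SD of log2(CPM + 1) over PNs was 3.01 for *Ucp1*, 1.90 for *Cidea*, 1.68 for *Cox8b*, 1.18 for *Dio2*, 1.06 for *Cox7a1*, 1.03 for *Elovl3*, 0.75 for *Otop1*, 0.66 for *Ppara*, 0.51 for *Prdm16*, and 0.36 for *Ppargc1a*. In the 3 controls the SD was 0.37 for *Ucp1*, 0.32 for *Cidea*, and 0.60 for *Dio2*, while *Ppara* (0.68) and *Ppargc1a* (0.53) spread no less there than among PNs. Slow-growing PN 1198A was among the 5 highest PNs for all 10 genes and PN 1202 for 9, and *Cidea*, *Cox7a1*, *Cox8b*, *Elovl3*, *Ppara*, and *Otop1* each shared 4 of their 5 highest PNs with *Ucp1*. *Dio2* shared 2. Over the 11 PNs, Pearson r of log2(CPM + 1) with *Ucp1* was 0.94 for *Elovl3*, 0.92 for *Cidea*, 0.87 for *Cox8b*, and 0.86 for *Cox7a1*, but 0.30 for *Dio2* and -0.05 for *Prdm16*; these values come from the same libraries and their scaling, and are descriptive.

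Ratios among the genes were taken within each library. Reads of *Ucp1* per read of *Cox8b* were 5.43, 4.79, and 4.98 in the 3 controls and ranged from 0.5 to 23.6 in the 9 PNs where both had more than 3 reads. The highest ratios were in fast-growing PN 1214 (23.6), fast-growing PN 1191 (11.3), and slow-growing PN 1198A (10.6), and the lowest in slow-growing PN 1079 (0.5). That of PN 1191 rests on 68 reads of *Ucp1* and only 6 of *Cox8b*, so its rank is uncertain. In PN 1079, *Ucp1* had only 23 reads while *Cox8b* had 46 and *Cox7a1* 47. *Cox8b* per *Cox7a1* was between 1.45 and 1.57 in controls, between 0.979 and 2.95 in slow-growing PNs, and between 0.30 and 1.52 in 5 fast-growing PNs. *Ucp1* per *Elovl3*, in contrast, was between 46.5 and 83.0 in controls, between 39.3 and 61.1 in 3 slow-growing PNs, and between 7.56 and 30.4 in 3 fast-growing PNs.

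Each member of an isoform pair was set against its ubiquitous partner, per transcript length. *Cox7a1* made up 41.6 to 52.9% of *Cox7a1* plus *Cox7a2* in controls, 1.60 to 23.7% in slow-growing PNs, and 3.59 to 8.33% in fast-growing PNs. *Cox8b* made up 42.7 to 58.4% of *Cox8b* plus *Cox8a* in controls, 3.47 to 29.3% in slow-growing PNs, and 0.195 to 9.36% in fast-growing PNs. Both shares lay below the control range in every PN: the tissue-restricted subunits were lower relative to the subunits that most cells make. *Cox8a* (log2 fold change -2.09, SE 0.27) and *Cox7a2* (-1.65, SE 0.28) were themselves lower in PNs than in controls, by less.

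**Figure D3:**
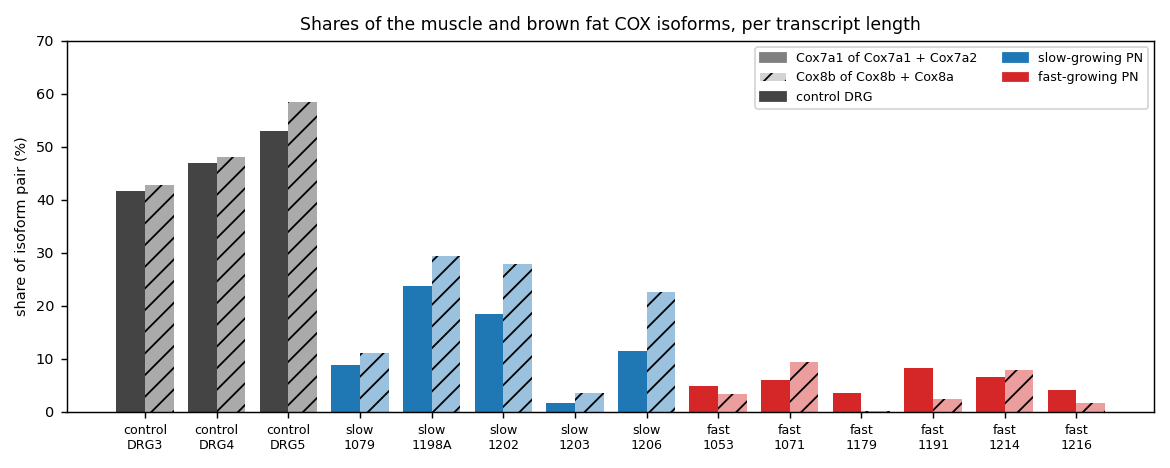
Share (%) of *Cox7a1* in *Cox7a1* plus *Cox7a2* (solid bars) and of *Cox8b* in *Cox8b* plus *Cox8a* (hatched bars) in each of the 14 libraries, from levels per transcript length. The 3 controls stand at 41.6% or above, and the highest PN bar is the 29.3% of *Cox8b* in slow-growing PN 1198A.

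The paralogues of the thermogenic genes were described as a second list of 18 genes. Of 13 tested, 6 were called lower in PNs than in controls and 0 higher, where 13.4% of all genes were called lower and 12.9% higher. The 6 were *Ucp3*, *Cox7a2*, *Cox7a2l*, *Cox8a*, *Ppargc1b*, and *Pparg*. The median log2 fold change of the 13 was -1.08, beside 0.10 for all genes. *Ucp2*, the uncoupling protein of immune and many other cells, stood at 269 CPM in controls, 207 in slow-growing, and 284 in fast-growing PNs (log2 fold change -0.11 in PNs against controls, SE 0.35). *Ucp3*, the muscle and brown fat paralogue, was at 39.9, 14.9, and 2.63 CPM. *Elovl1* and *Elovl5*, elongases of broad expression, were at 0.33 and 0.15 on the log2 scale in PNs against controls. *Cideb*, *Dio1*, *Dio3*, *Otop2*, and *Otop3* were too low to be tested.

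*Ppargc1b*, the close relative of *Ppargc1a* and also a coactivator of mitochondrial genes, separated the 3 groups. It was at 25.6, 24.1, and 32.7 CPM in controls, 4.79, 8.64, 6.80, 6.02, and 10 CPM in slow-growing PNs, and 2.71, 3.74, 2.63, 3.03, 3.55, and 1.88 CPM in fast-growing PNs. Every fast-growing PN was below every slow-growing PN, as for 0.912% of all genes, and the difference passed the test (log2 fold change -1.31, SE 0.24; edgeR adjusted p = 0.0449). The call was lost on leaving out any 1 of 8 of the 11 libraries, which are named with the adipocyte genes below (edgeR adjusted p up to 0.128), with limma voom (adjusted p = 0.0512), and with the adipocyte score as a covariate (edgeR adjusted p = 0.103). It was the 1 call among the 13 paralogues tested between fast- and slow-growing PNs, where 0.466% of all genes were called lower. *Pparg* (25.8 and 2.89 CPM; log2 fold change -3.16, edgeR adjusted p = 0.0691), *Ucp3* (-2.50, edgeR adjusted p = 0.0565), and *Elovl6* (496 and 119 CPM; -2.06, edgeR adjusted p = 0.0659) were lower in fast-growing PNs without passing.

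Receptors and regulators of the program, both activators and repressors such as *Nrip1* and *Twist1*, formed another list of 14 genes, all tested. In PNs against controls, 4 were called lower (*Adrb1*, *Cebpb*, *Esrra*, and *Irf4*) and 1 higher (*Zfp516*), where 13.4% of all genes were called lower and 12.9% higher, and the list median was -0.63. *Adrb3*, the adipocyte beta-adrenergic receptor, was at 51.7 CPM in controls, 16.8 in slow-growing, and 1.24 in fast-growing PNs. *Ebf2*, a brown adipocyte selector factor, went the other way: 60.6 CPM in controls, 74.5 in slow-growing, and 183 in fast-growing PNs, where it was called higher than in controls. Between fast- and slow-growing PNs 1 of the 14 was called, where 0.466% of all genes were called lower. It was the thyroid hormone receptor gene *Thrb*, which averaged 22.8 ± 5.32 CPM among slow-growing tumors and 8.46 ± 2.86 among fast-growing ones (log2 fold change -1.43, SE 0.25, edgeR adjusted p = 0.0408). *Thrb* was lower in every fast-growing than in every slow-growing PN, as were 0.912% of all genes. This call was lost on leaving out any 1 of 7 libraries (edgeR adjusted p up to 0.122) and with the adipocyte score (edgeR adjusted p = 0.0958). *Rxra* and *Nrip1*, the other abundant members of this list, lay at -0.24 and 0.10 in PNs against controls.

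Of 16 further genes characteristic of brown adipocytes, 8 were called lower and 1 higher (*Bmp8b*) in PNs than in controls, where 13.4% of all genes were called lower and 12.9% higher. The list median was -1.80, beside 0.10 for all genes. *Fabp3*, the fatty acid carrier of muscle and brown fat, had a log2 fold change of -3.35, *Acot11* one of -1.92, and *Letmd1* one of -1.71. *Slc36a2*, an amino acid transporter used as a brown adipocyte surface marker, averaged 150 ± 10.6 CPM over controls, 108 ± 63.7 CPM over slow-growing PNs, and 23.3 ± 7.20 CPM over fast-growing PNs. The slow-growing PNs held 96.6, 107, 101, 28.4, and 207 CPM, and the highest control 161 CPM. This gene did not follow *Ucp1* in every PN: in PN 1079, at 96.6 CPM, *Ucp1* was at 1.75 CPM. The *Slc36a2* difference between fast- and slow-growing PNs passed the test (log2 fold change -2.22, SE 0.40, edgeR adjusted p = 0.0449), with slow-growing PN 1203 at 28.4 CPM inside the fast-growing range. It was the 1 call of 12 tested, where 0.466% of all genes were called lower. The call was lost on leaving out any 1 of 8 libraries (edgeR adjusted p up to 0.128), with limma voom (adjusted p = 0.0538), and with the adipocyte score (edgeR adjusted p = 0.132). Of the 12, 10 had a negative log2 fold change and 2 a positive one. These 2 were *Kng2* (2.29, edgeR adjusted p = 0.0718), higher in every fast-growing than in every slow-growing PN, and *Zic1* (1.54, edgeR adjusted p = 0.139). The share of all genes that were higher in every fast-growing PN is not given, so nothing is read from that separation. Of 5 beige adipocyte genes tested, 3 were called lower in PNs than in controls, where 13.4% of all genes were. None of the 5 was lower in every PN than in every control, where 9.48% of all genes were. The summed level of all 6 on the list, *Hoxc9* included, was between 8.38 and 17.1 CPM in controls and between 2.83 and 5.17 CPM in PNs.

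Markers of other cell types also differed between groups. Of 8 Schwann cell genes, 5 were called higher and 0 lower in PNs than in controls (median 1.60), where 12.9% of all genes were called higher and 13.4% lower. Of 10 sensory neuron genes 0 were called in either direction by edgeR, with 0 at an unadjusted p under 0.05 (median 0.70). The summed level of 15 general adipocyte genes, such as *Fabp4*, *Lpl*, *Cfd*, and *Thrsp*, was 5375 to 7017 CPM in controls, 74.3 to 4365 CPM in slow-growing PNs, and 79.8 to 491 CPM in fast-growing PNs; all 15 had at least 1 read in every control and 11 in every PN. Of the 15, 3 were called lower in PNs than in controls (median -2.37; 13.4% of all genes), 0 in slow-growing PNs against controls by edgeR (median -1.44, with 1 at an unadjusted p under 0.05), and 15 in fast-growing PNs against controls (median -5.22; 16.7% of all genes). Between fast- and slow-growing PNs 1 of 14, the lipase gene *Pnpla2* (log2 fold change -2.38, edgeR adjusted p = 0.0484, limma voom adjusted p = 0.0936), was called lower, where 0.466% of all genes were. Of the 14, 13 had an unadjusted p under 0.05, and the median was -3.46. The summed level of 17 skeletal muscle genes, such as *Acta1*, *Neb*, *Atp2a1*, and *Myh4*, was 5530 to 21703 CPM in controls, 62.6 to 5233 in slow-growing PNs, and 194 to 3626 in fast-growing PNs; all 17 had at least 1 read in every control and 15 in every PN. Of the 17, 11 were called lower in PNs than in controls (median -3.33, against 13.4% of all genes called lower) and 0 of 15 between fast- and slow-growing PNs, with 1 at an unadjusted p under 0.05. The calls of *Ppargc1b*, *Thrb*, *Slc36a2*, and *Pnpla2* between fast- and slow-growing PNs lay near the threshold: all 4 were lost with the adipocyte score as a covariate (edgeR adjusted p from 0.0958 to 0.342), and each was lost without any 1 of slow-growing PNs 1079, 1202, and 1206 or of fast-growing PNs 1053, 1179, 1191, and 1216. Leaving out PN 1214 also ended 3 of them, all but *Thrb*, and leaving out PN 1071 ended that of *Pnpla2*. Their log2 fold changes stayed negative in every one of these fits. The part of adipocyte and of muscle RNA in the thermogenic results was not tested.

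**Figure D4:**
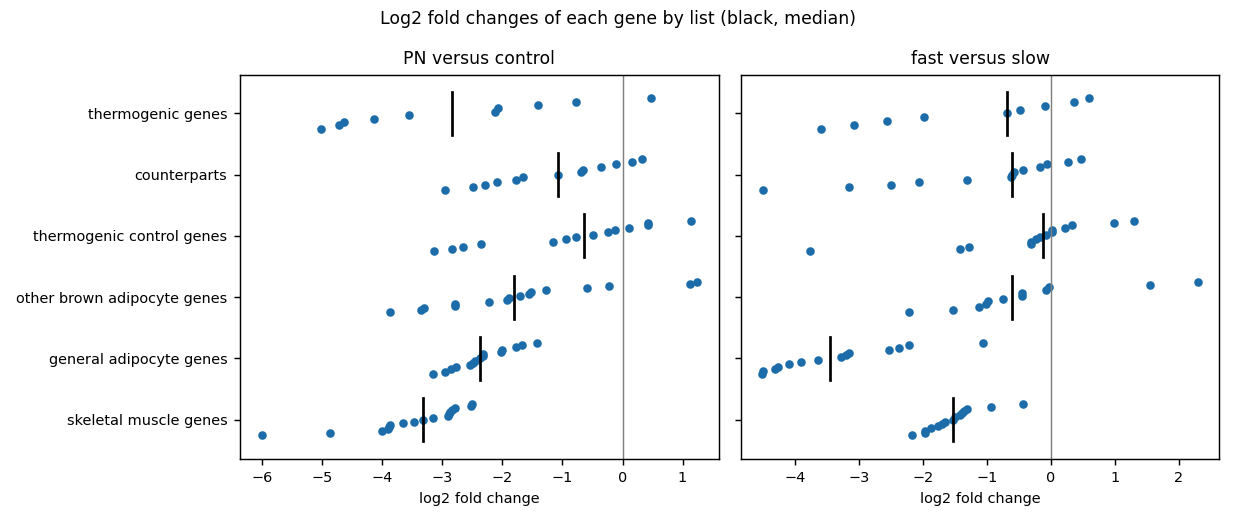
Log2 fold change of every tested gene in 6 lists, for PNs against controls and for fast-growing against slow-growing PNs; each point is a gene and black bars are list medians. The thermogenic genes have a median of -2.84 in the first comparison and -0.69 in the second, where the general adipocyte genes have one of -3.46.

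Among PNs, 6 of the thermogenic genes varied closely with the general adipocyte genes. Over the 11 PNs, Pearson r with the mean log2 level of the general adipocyte genes was 0.91 for *Ppara*, 0.90 for *Cidea*, 0.86 for *Cox7a1*, 0.85 for *Cox8b*, 0.79 for *Ucp1*, and 0.70 for *Elovl3*, and 0.68 or above for each of the 6 without PNs 1198A and 1206, which have the most adipocyte RNA; Spearman's rho was between 0.68 and 0.82. With the mean log2 level of the muscle genes, r lay between -0.35 and 0.07 for the same 6 genes, and between -0.72 and -0.31 without PNs 1202 and 1079, which have the most muscle RNA. *Ppargc1a* lay between, with r of 0.57 to the adipocyte genes (0.69 without PNs 1198A and 1206) and 0.19 to the muscle genes. *Prdm16* (0.07), *Otop1* (0.28), and *Dio2* (0.31) were little related to the adipocyte genes. These values share libraries and scaling and are given without a test.

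Slow-growing PN 1206 had the most adipocyte RNA of the PNs (4365 CPM) and PN 1198A had 3060, while their muscle genes summed to only 91.7 and 62.6 CPM; *Cox8b* was at 16.8 and 26.7 CPM in these PNs. *Ucp1*, which is not among the 15 genes of that sum, stood at 1.35% of its level in PN 1206, against 9.27% in PN 1198A, 6.06% in PN 1202, and 13.8, 15.2, and 18.4% in controls. PN 1206 held 406 CPM of *Cidec*, a general adipocyte droplet gene, above the 314, 248, and 374 CPM of controls, and 14.6 CPM of *Cidea*. Fast-growing PN 1214, with an adipocyte sum of 288 CPM, had *Ucp1* at 27.3% of that sum, and fast-growing PN 1071 at 12.5%. Fast-growing PN 1191, with more adipocyte RNA (491 CPM), had 1.05%. The ratio of *Ucp1* to the general adipocyte genes differed widely from tumor to tumor.

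**Figure D5:**
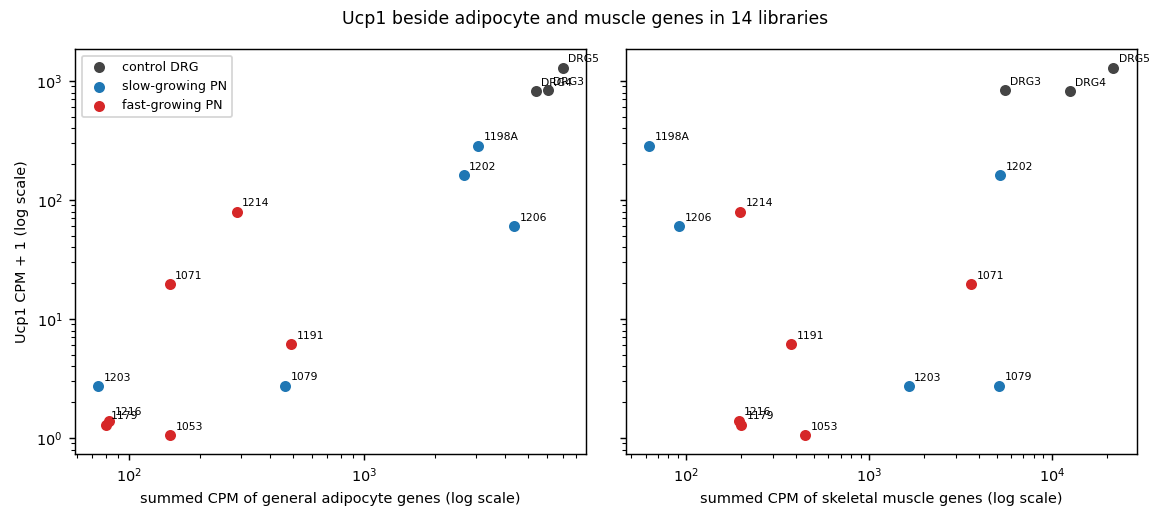
*Ucp1* (CPM + 1, log scale) against the summed CPM of 15 general adipocyte genes (left) and of 17 skeletal muscle genes (right, both log scales) in 14 libraries. Slow-growing PN 1206 lies at 4365 CPM of adipocyte genes with *Ucp1* at 58.9 CPM, and slow-growing PN 1198A has the lowest muscle sum (62.6 CPM) and the highest *Ucp1* of the PNs.

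The genes whose levels over the 11 PNs were most like those of each thermogenic gene were sought over 15134 genes, by Pearson r of log2(CPM + 1). For *Ucp1* they were *Slc27a2* (r = 0.945), *Gpd1* (0.917), and *Aspg* (0.906). For *Cidea* they were *Gpd1* (0.983), *Slc2a4* (0.974), and *Decr1* (0.969), for *Cox7a1* *Acaa2* (0.969) and *Slc2a4* (0.965) came first, and for *Cox8b* *Etfdh* (0.974), *Hibch* (0.972), and *Slc2a4* (0.968). *Elovl3* was most like *Slc27a2* (0.943). *Slc27a2* was at 0 CPM in slow-growing PNs 1079 and 1203 and in fast-growing PNs 1053, 1179, 1191, and 1216. Its r with *Ucp1* and *Elovl3* therefore gives no order among these PNs. *Ppara* was most like *Agpat2* (0.986), *Eif4ebp1* (0.966), and *Lipe* (0.961). *Prdm16* was nearest to *Pdzd2* (0.967), *Insc*, and *Map3k4*, *Dio2* to *Srsf10*, *Fam86*, and *Adam12*, *Ppargc1a* to *Zfp931* (0.907), and *Otop1* to *Ndufb11* (0.868). No gene stood among the 3 nearest of both *Dio2* and *Ucp1*. With r of 0.30 between these 2 genes and only 3 genes kept for each, a shared gene could hardly occur, so nothing is read from this.

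The counting was not stated to use strand. *Elovl3* shares exon sequence with *Pitx3* on the opposite strand, *Dio2* with *Gm26512*, and *Prdm16* with *B230104I21Rik*, so reads of these pairs cannot be separated, and their values are uncertain to that extent. The libraries are labelled by separate mice, and dates of preparation are not given in the sources used here, so a difference in preparation cannot be told apart from the groups.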

How the data were processed

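Bulk RNA-seq of 14 mouse libraries was used: 3 control DRGs with nerve, 5 slow-growing PNs, and 6 fast-growing PNs, grouped by their labels. The authors amplified RNA with an Ovation v2 kit, aligned reads to mm10 with TopHat2 2.0.9, and deposited raw counts per gene from featureCounts 1.5.2; CASAVA 1.4, FastQC 0.11.0, and edgeR 3.16.5 are also named in the submitters' processing notes. A table of log2 values normalized and deposited by the authors was not used. Counts (9596773 to 17594164 per library, 24062 genes) were tested with edgeR 4.0.16 in R 4.3.3 (filterByExpr, TMM, quasi-likelihood test, Benjamini-Hochberg adjustment over all genes tested, threshold 0.05), with only the libraries of each comparison in the fit; the log2 fold change divided by the square root of F gave its SE, and 95% intervals used the degrees of freedom implied by each p. Levels are TMM-scaled CPM, and log2 levels use CPM + 1. Amplified reads can stem from 1 molecule, so the level equal to 3 counts covers counting error only, and amplification can distort low levels. Alternatives were DESeq2 1.42.0 and its size factors, limma 3.58.1 (voom), no filter, all libraries in 1 fit, a muscle or adipocyte score as a covariate, and leaving out each library. The scripts were tested on simulated counts. The thermogenic genes and all gene lists were chosen with earlier results of these data known. Named beyond them were the paralogues, of each other list the 4 genes of highest mean CPM, the 3 genes most alike over PNs, and *Nf1*. *Adrb1*, *Adrb3*, *Cebpb*, *Esrra*, *Irf4*, *Thrb*, *Twist1*, *Hoxc9*, *Bmp8b*, *Kng2*, *Zic1*, and *Pnpla2* were named after their values had been seen. Gene positions are from GENCODE vM21 on mm10.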

Additional observations from a re-analysis of the deposited data

Results flagged for a closer look

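The slow-growing and the fast-growing PNs were searched for single libraries far from the rest of their group (Dixon's test at the 95% level, 20 groups; the 3 controls were too few to try, and chance alone flags about 1 group in 20). On the CPM scale 4 values stood apart, each the highest of the fast-growing PNs: *Ucp1* at 78.5 CPM, *Cidea* at 5.10 CPM, and *Elovl3* at 2.89 CPM, all in PN 1214, and *Dio2* at 61.0 CPM in PN 1191. On the log2(CPM + 1) scale 0 did. Without PN 1214, the log2 fold change of fast-growing against slow-growing PNs was -4.37 for *Ucp1* and -5.01 for *Cidea*, neither called by edgeR.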

How the results depend on the processing

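The number of thermogenic genes called lower in PNs than in controls was 2 with the skeletal muscle score and 2 with the general adipocyte score as a covariate (the fold changes of *Ucp1*, *Cidea*, *Cox7a1*, and *Cox8b* stayed about as large with the muscle score and shrank with the adipocyte score), and 4 to 9 over the fits that left out 1 library. For slow-growing PNs against controls it was 6 with DESeq2, 6 with limma voom, 5 with all 14 libraries in 1 fit, 0 with the muscle score, and 1 to 6 with 1 library left out. For fast-growing PNs against controls the number called was 1 with the muscle score, 0 with the adipocyte score, and 6 to 10 with 1 library left out, the 10 including *Prdm16* called higher without DRG3 or without PN 1214. DESeq2 also called 10, *Prdm16* among them. Between fast- and slow-growing PNs the number called was 3 with DESeq2 and 0 to 1 with 1 library left out. Except where printed above, the share of all genes called in these alternative fits is not given, so nothing is read from their counts. The log2 fold change of *Prdm16* turned to -0.22 in PNs and to -0.59 in slow-growing PNs against controls with the muscle score, and ranged from -0.05 to 0.47 in slow-growing PNs with 1 library left out. With the adipocyte score, those of fast-growing PNs against controls turned to 5.62 for *Ucp1*, 4.23 for *Elovl3*, and 0.44 for *Dio2*, and those of fast-growing against slow-growing PNs to 2.39 for *Ucp1*, 0.79 for *Cidea*, 0.53 for *Ppara*, and 0.67 for *Otop1*; that of *Otop1* ranged from -0.27 to 0.29 with 1 library left out. The cause was not tested. Both scores were higher in every control than in every PN, so the fits against controls cannot separate a score from the group. *Pparg* and *Cidec* are themselves in the adipocyte score. Depth limits *Ucp1*, *Cidea*, *Cox8b*, and *Elovl3*, which were at or under 3 counts in 1, 3, 1, and 5 PNs. Alternatives for *Ppargc1b*, *Thrb*, *Slc36a2*, and *Pnpla2* between fast- and slow-growing PNs were added after their calls had been seen: limma voom did not call *Ppargc1b* (adjusted p = 0.0512), *Slc36a2* (0.0538), or *Pnpla2* (0.0936), and their edgeR adjusted p with 1 library left out ranged from 0.0114 to 0.129. No paired analysis was possible because the groups share no replicate numbers.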
